A study of Mus musculus with 6 samples.

Results

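Genes of transcription elongation and of the histone chaperone FACT were read in mouse embryonic fibroblasts (MEF) on day 3 of reprogramming, in 3 WT and 3 Rnf20 knockout libraries. The genes were taken by symbol from the deposited count table, which has a row for each of the 10 among its 16982 genes. They are Cdk9, Ccnt1 and Ccnt2 of the kinase P-TEFb, Aff4 and Ell2 of the super elongation complex (SEC), Supt4a and Supt5 of DSIF, Supt6, and Ssrp1 and Supt16 of FACT. All 6 cultures, of C57BL/6 background, carried the reprogramming factors OSKM, that is C-MYC, KLF4, SOX2 and OCT4, from retroviruses. The WT group is labelled wild type and the knockout group Rnf20-/-, which the study made from floxed Rnf20 with a ubiquitous Cre that 4-OH tamoxifen switches on. The labels list every culture as untreated, and it is not given in the sources used here whether the WT cells received the drug, nor whether the replicates were separate cultures, so that p-values measure the spread between these samples.

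RNF20 is an E3 ligase that attaches a single ubiquitin to histone H2B along transcribed genes. RNA polymerase II pauses soon after it starts, held by DSIF and NELF, and P-TEFb releases it by phosphorylating both factors and the tail of the polymerase. The SEC carries P-TEFb to genes, while FACT and SPT6 take nucleosomes apart ahead of the polymerase and rebuild them behind it, and ubiquitin on H2B is known to help FACT in this work.

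The 5′ flanks of 3 of these genes are shown because 2 of them, Ssrp1 and Aff4, were called with all libraries, and Supt16 is the partner of Ssrp1. The sequences are from RefSeq for GRCm38.p6, run 5′ to 3′ on the strand of the gene, and stop before the first start annotated for it, so that they hold no transcribed base. Capitals mark matches to any of 5 motifs, searched on both strands and allowed to overlap. The E-box was searched as CACGTG. The site that factors of the E2F family bind was searched as TTCGCGC. The site of the trimeric factor NF-Y was searched by its core CCAAT. The GC box, which SP factors bind, was searched as GGGCGG. The box bound by the TATA-binding protein was searched as TATAAA.
Ssrp1 (chr2:85036870-85037119, plus strand): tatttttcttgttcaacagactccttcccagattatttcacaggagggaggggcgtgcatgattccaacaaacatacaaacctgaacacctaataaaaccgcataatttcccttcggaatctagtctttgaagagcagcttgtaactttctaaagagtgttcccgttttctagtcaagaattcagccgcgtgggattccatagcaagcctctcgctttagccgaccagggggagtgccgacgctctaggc
Supt16 (chr14:52197417-52197489, minus strand): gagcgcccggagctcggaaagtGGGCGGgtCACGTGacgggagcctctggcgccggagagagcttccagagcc
Aff4 (chr11:53350517-53350639, plus strand): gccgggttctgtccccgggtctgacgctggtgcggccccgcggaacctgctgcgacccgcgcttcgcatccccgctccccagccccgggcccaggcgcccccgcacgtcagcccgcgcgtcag
RefSeq gives 11 windows for the 10 genes, each from 250 bases before to 50 after a start, and 32851 windows over all genes. The GC box was in 8 of the 11 windows and in 35.7% of all windows, and CCAAT was in 3 of the 11 and in 37.4%. The E-box was found in the windows of Supt16 and Aff4, where all windows held it in 7.15%. Neither the E2F letters nor the TATA box was in a window of these genes, and 1.59% and 13.6% of all windows held them. The 2 FACT genes shared the GC box alone. In Ssrp1 it lay in the window of a later start, 85037451. The stretch printed for Ssrp1 ends before the start at 85037120 and does not hold it. The E-box of Aff4 also lay outside the stretch printed.

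Each library held 20545442 to 21746898 counts, and the 10 genes had between 539 and 7940 counts per library, so that all 10 passed the filter on low counts. Levels are given as CPM, the count of a gene relative to the library total after scaling of the libraries by TMM. Rnf20, the targeted gene (chromosome 4 of GRCm38, 49632006 to 49656887), was read at 107, 107 and 106 CPM in WT and at 18.7, 18.5 and 16.4 CPM in knockout replicates 1 to 3, the knockout mean being 16.8% of the WT mean. Knockout replicate 3 stood apart, with a chi-square statistic of 92.4 and 101 per gene against the other knockout libraries, where WT libraries differed from each other by 6.04 to 8.92. No count of the Y-linked Ddx3y was found in knockout replicates 1 and 3, whereas it was read at 94.4 to 128 CPM in the remaining 4 libraries. Ddx3y was thus present in every WT library but in only 1 knockout library. The part of sex in the levels given here was not tested. Fibroblast genes were high in every library (6 genes, 21259 to 22987 CPM summed in WT and 15421 to 25763 in knockout), with Thy1 and Pdgfra lower in knockout cells. The methods of the study move infected cells onto a feeder layer of MEF treated with mitomycin-C. It is not given whether these libraries hold RNA of feeder cells. The pluripotency genes Nanog, Utf1 and Zfp42 came to no more than 2.28 CPM together.

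The question put to these libraries is whether loss of the H2B ubiquitin ligase changes the transcripts of the factors that act with that mark. Of the 10 genes, 1 fell and 1 rose in the knockout, the call being an adjusted p under 0.05 in the quasi-likelihood F-test of edgeR, Benjamini-Hochberg adjusted over all 13386 genes tested. Ssrp1 fell to 69.1% of the WT mean and Aff4 rose to 125% of it. Over all genes tested 16.6% were lower and 16.4% higher by the same rule, 33% in either direction, so the share of the 10 genes that was called was not above the background. When the libraries were scaled by their totals alone, the same counts of 1 and 1 stood against 20.1% lower and 13.1% higher over all genes. The thresholds of the study (adjusted p under 0.01, a fold change over 2 and FPKM over 1) were also applied to the same edgeR fit. None of the 10 passed them there, and 3.59% of all genes did, 2.08% lower and 1.5% higher. The calls made by the study itself were not used. By an unadjusted p under 0.05 from edgeR's test, 2 were lower and 1 was higher, and with DESeq2 2 were lower and 2 higher by that measure. The share of all genes by that measure was not counted. No count by an unadjusted p is therefore read as a result here. The 3 knockout libraries lay wholly below the WT libraries for 2 genes and wholly above for 3, against 28.2% and 26.6% of all genes (54.8% in either direction), and the libraries of the other 5 overlapped. The median log2 fold change of knockout over WT was 0.13 for the 10 genes and -0.00032 for all genes tested. The counts of called genes moved with the fit, among these 10 as among all genes. DESeq2 called 2 of the 10 lower and 1 higher, against 18.6% and 19.5% of all genes, and RLE factors in edgeR gave 1 and 1 against 16.1% and 16.8%. With the replicate number as a block the counts were 1 and 1 against 11.1% and 10.3%. At an adjusted p under 0.01 none of the 10 was called by edgeR, against 4.89% lower and 4.98% higher over all genes. None was called without WT replicate 1 (7.31% of all genes lower, 7.01% higher), 2 (6.13% and 5.75%) or 3 (5.17% and 5.11%), where edgeR gave 1 lower and 1 higher by an unadjusted p under 0.05. Bulk RNA does not tell fewer cells of a type from less RNA per cell.

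**Figure D1:**
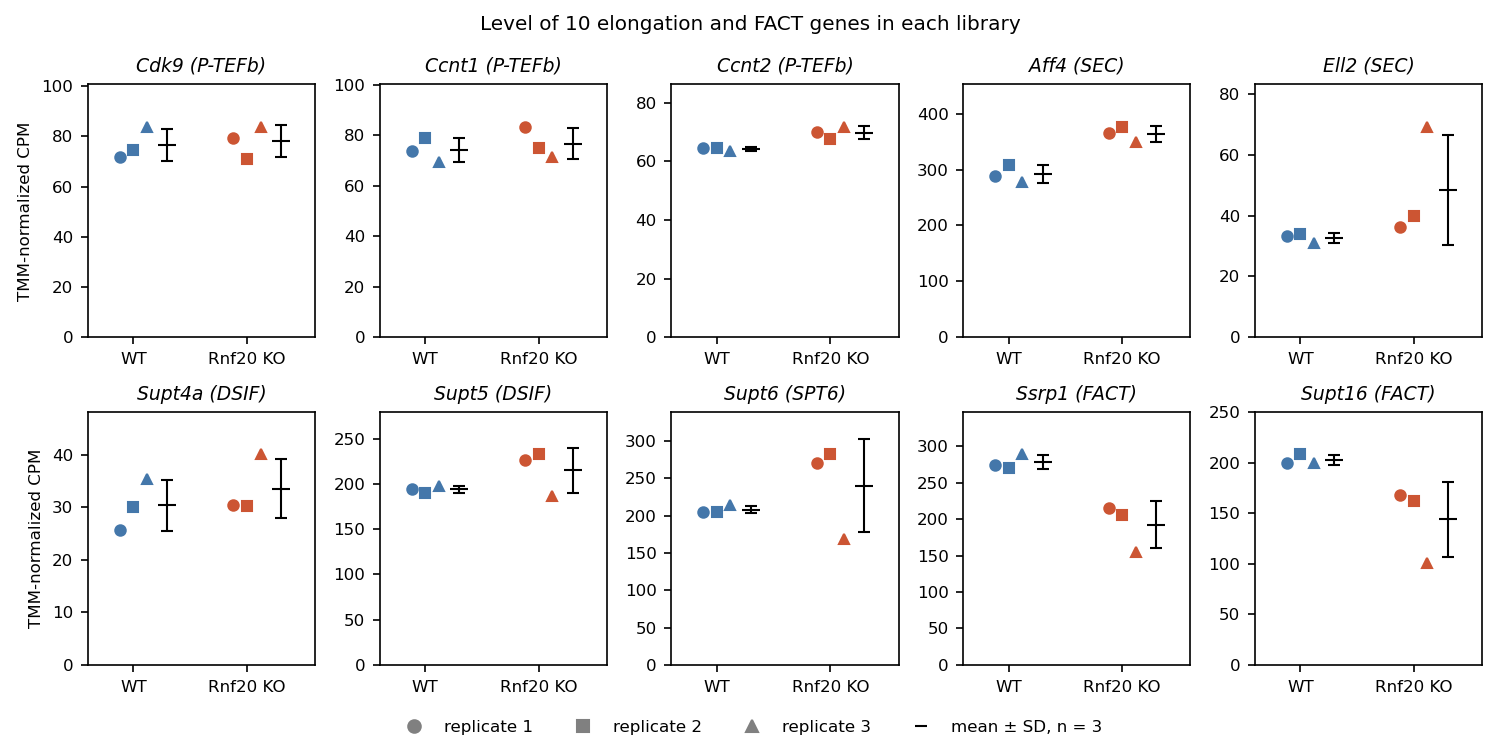
TMM-normalized CPM of the 10 genes in each library (blue, WT; red, Rnf20 knockout; circle, square and triangle, replicates 1, 2 and 3), with the mean ± SD (n = 3) in black and each vertical axis starting at 0. Ssrp1 and Supt16 lie lower and Aff4 higher in every knockout library, and replicate 3 of the knockout sets itself apart in Ell2, Supt5, Supt6 and both FACT genes.

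FACT is a dimer of SPT16 and SSRP1 that holds H2A-H2B dimers while the polymerase or the replication fork passes. Ssrp1 (ENSMUSG00000027067, chromosome 2 of GRCm38, 85037234 to 85047109, plus strand) had 275, 271 and 289 CPM in WT and 215, 206 and 155 CPM in knockout replicates 1 to 3. All knockout libraries were below all WT libraries, and replicate 3 was the lowest. Its log2 fold change was -0.53 (standard error 0.13, 95% interval -0.84 to -0.23, edgeR adjusted p = 0.0222). Without knockout replicate 3 it was -0.40 (edgeR adjusted p = 0.000223). The call was lost when WT replicate 1, 2 or 3 was left out, with edgeR adjusted p-values of 0.0707, 0.0716 and 0.0860, and the log2 fold change stayed between -0.62 and -0.40 over the fits with 1 library fewer.

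Supt16 (ENSMUSG00000035726, chromosome 14, 52160414 to 52197416, minus strand) had 199.7, 208 and 200.1 CPM in WT and 168, 163 and 101 CPM in the knockout libraries. Here too the genotypes did not overlap, and in these counts knockout replicate 3 was far below the other 2. With all libraries the test did not pass (log2 fold change -0.49, standard error 0.19, 95% interval -0.93 to -0.051, edgeR adjusted p = 0.0827). Without knockout replicate 3 the log2 fold change was smaller, -0.29, and passed (edgeR adjusted p = 0.00123). Over its 14 alternatives the adjusted p ranged from 0.00123 to 0.195, and DESeq2 with all libraries also called it lower (DESeq2 adjusted p = 0.0395). In the deposited FPKM values Supt16 was at 52.1, 52.1 and 48.7 in WT and at 42.5, 43.8 and 38.7 in knockout cells. The genotypes did not overlap there either, but replicate 3 was closer to the other knockout libraries and the log2 ratio of the means was -0.29. Exons of Rpgrip1 on the other strand, which had 2 to 8 counts per library, cover 20.98% of the exon bases of Supt16, so its count is uncertain where the counting could drop shared reads.

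The FACT genes were set beside 10 proliferation genes (Mki67, Top2a, Cdk1, Ccnb1, Pcna and 5 genes of the MCM helicase), since FACT also serves DNA replication. All 10 proliferation genes fell by the same rule in edgeR's test, with a median log2 fold change of -1.52, and of -1.24 without knockout replicate 3. Their summed level was 1619 to 1647 CPM in WT and 706, 622 and 259 CPM in knockout replicates 1 to 3. Knockout replicate 3 was thus the lowest library for these genes and for both FACT genes, and the part of proliferation in the level of Ssrp1 and Supt16 was not tested. In CPM it was also the lowest library for Supt5, Supt6 and the polymerase gene Polr2a, and the highest for Ell2, Supt4a and Ccnt2.

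The genes whose values over the 6 libraries were most like each FACT gene were found from log2 CPM centred on the WT mean, by the root mean square difference. For Ssrp1 they were Plcd3, a phospholipase C, Dvl2, a Dishevelled protein of WNT signalling, and Men1, which encodes menin, at 0.031, 0.033 and 0.035 log2 units. For Supt16 they were Dock1, an activator of RAC, Pfas, an enzyme of purine synthesis, and Cse1l, which exports importin alpha from the nucleus, at 0.029, 0.038 and 0.039. The distance between Ssrp1 and Supt16 was 0.10, which put Supt16 at rank 195 from Ssrp1 and Ssrp1 at rank 114 from Supt16 among the genes tested.

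**Figure D2:**
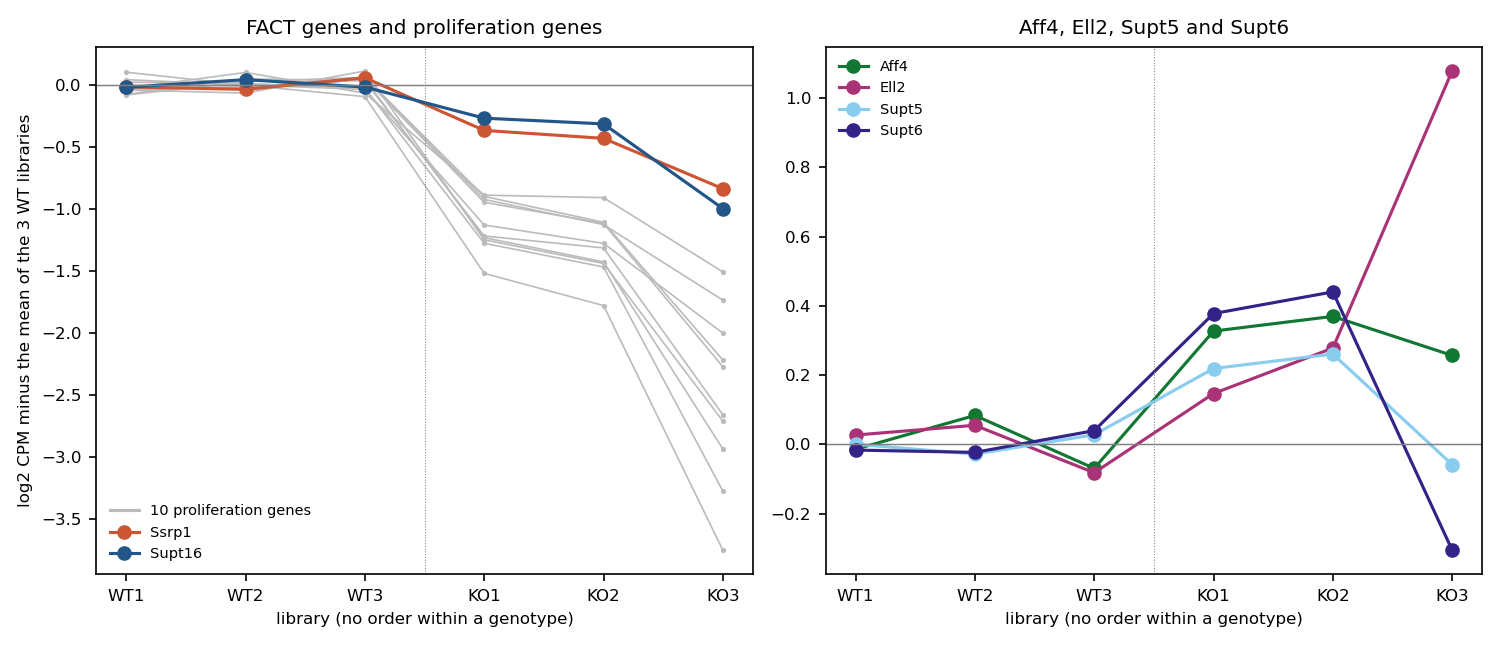
log2 CPM (pseudocount of 2 counts) minus the mean of the WT libraries, by library, for Ssrp1 and Supt16 with 10 proliferation genes in grey (left) and for Aff4, Ell2, Supt5 and Supt6 (right). The lines join values of 1 gene and no order is implied within a genotype; in knockout replicate 3 the FACT and proliferation genes are at their lowest, Ell2 is at its highest and Supt6 is below WT in these counts, though not in the deposited FPKM values.

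In the SEC, AFF4 is the scaffold and ELL2 speeds up the polymerase. Aff4 (ENSMUSG00000049470, chromosome 11, 53350833 to 53421830, plus strand) had 289, 309 and 278 CPM in WT and 366, 377 and 349 CPM in knockout cells. The genotypes did not overlap and, unlike for the FACT genes, the 3 knockout libraries were close to one another. The log2 fold change was 0.32 (standard error 0.073, 95% interval 0.14 to 0.49, edgeR adjusted p = 0.0197), and 0.35 without knockout replicate 3 (edgeR adjusted p = 0.000769). Leaving out WT replicate 1, 2 or 3 or knockout replicate 2 ended the call, with edgeR adjusted p-values of 0.0815, 0.0518, 0.0889 and 0.0600. The size of the change moved little, from 0.28 to 0.36.

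Ell2 (ENSMUSG00000001542, chromosome 13, 75706757 to 75772364, plus strand) had 33.4, 34.0 and 30.9 CPM in WT and 36.3, 39.7 and 69.3 CPM in knockout cells. Every knockout library was above every WT library, and knockout replicate 3 held most of the difference. With all libraries the log2 fold change was 0.56 (standard error 0.24, 95% interval -0.013 to 1.14, edgeR adjusted p = 0.116), and without knockout replicate 3 it was 0.22 (edgeR adjusted p = 0.0434). In that library markers of other cell types also differed. The 5 macrophage markers summed to 62.2 CPM there and to 16.7 to 29.5 CPM in the other 5 libraries. Adgre1 alone was at 31.9 CPM. Ptprc, Csf1r and Tyrobp were also highest in that library, while Cd68, at 8.57 CPM, was below the 10.5 CPM of WT replicate 2. The epithelial markers Epcam, Cdh1, Krt8 and Krt18 summed to 3.14 CPM there against 23.3 to 42.9. No gene of these 2 lists passed edgeR's test with all libraries. Their part in the level of Ell2 was not tested.

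P-TEFb is a kinase, CDK9, with cyclin T1 or T2. Cdk9 (chromosome 2, 32705784 to 32713076) had 71.6, 74.6 and 83.9 CPM in WT and 79.2, 71.1 and 83.7 CPM in knockout cells, with overlapping libraries. Its log2 fold change was 0.024 with a 95% interval of -0.20 to 0.25 (edgeR adjusted p = 0.862). Ccnt1, the cyclin T1 gene (chromosome 15, 98538689 to 98570923), had 73.8, 78.8 and 69.5 CPM in WT and 83.4, 74.8 and 71.5 CPM in knockout cells. These also overlapped, with a log2 fold change of 0.048 and a 95% interval of -0.16 to 0.26 (edgeR adjusted p = 0.697). The sign of Cdk9 and of Ccnt1 turned under scaling by library totals. Ccnt2, the cyclin T2 gene (chromosome 1, 127774164 to 127808061), had 64.7, 64.4 and 63.4 CPM in WT and 69.9, 67.6 and 71.9 CPM in knockout cells. Its libraries did not overlap, but the difference was small and did not pass the test (log2 fold change 0.12, 95% interval -0.032 to 0.27, edgeR adjusted p = 0.185).

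DSIF, made of SPT4 and SPT5, binds the polymerase in the pause and in elongation, and SPT6 is a histone chaperone that travels with it. Supt5 (ENSMUSG00000003435, chromosome 7, 28314891 to 28338746) had 194, 190.3 and 198 CPM in WT and 226, 233 and 186 CPM in knockout cells. Knockout replicates 1 and 2 were above and replicate 3 below all WT libraries. The log2 fold change was 0.15 (95% interval -0.082 to 0.38, edgeR adjusted p = 0.272), 0.24 without knockout replicate 3 (edgeR adjusted p = 0.00282) and 0.091 without replicate 2.

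Supt6 (ENSMUSG00000002052, chromosome 11, 78206746 to 78245987) showed the same split more widely, with 205, 204 and 213 CPM in WT and 269.9, 282 and 168 CPM in knockout cells. Its log2 fold change was 0.21 with a 95% interval of -0.24 to 0.65 (edgeR adjusted p = 0.418). It was 0.41 without knockout replicate 3 (edgeR adjusted p = 0.000127), 0.12 without replicate 1 and 0.080 without replicate 2. In the deposited FPKM values Supt6 was at 26.0, 25.9 and 29.0 in WT and at 33.7, 36.3 and 31.8 in knockout cells, so that there knockout replicate 3 was above all WT libraries and not below them. Supt4a (chromosome 11, 87737552 to 87743623) had 25.6, 30.1 and 35.4 CPM in WT and 30.5, 30.2 and 40.1 CPM in knockout cells, and its libraries overlapped. Its log2 fold change was 0.14 (95% interval -0.24 to 0.53, edgeR adjusted p = 0.514) and -0.00012 without knockout replicate 3. A processed pseudogene, Supt4b (chromosome 10, 31413815 to 31414165), is 99.1% identical to Supt4a over 351 bases, so the count of Supt4a is uncertain where the counting could split or drop shared reads.

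Without knockout replicate 3, 2 of the 10 genes were lower (Ssrp1 and Supt16) and 4 higher (Aff4, Ell2, Supt5 and Supt6) at an adjusted p under 0.05 in edgeR's test. In that fit 24.2% of all genes were lower and 23.9% higher, 48.1% in either direction. Cdk9, Ccnt1, Ccnt2 and Supt4a passed the test neither with nor without that library.

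**Figure D3:**
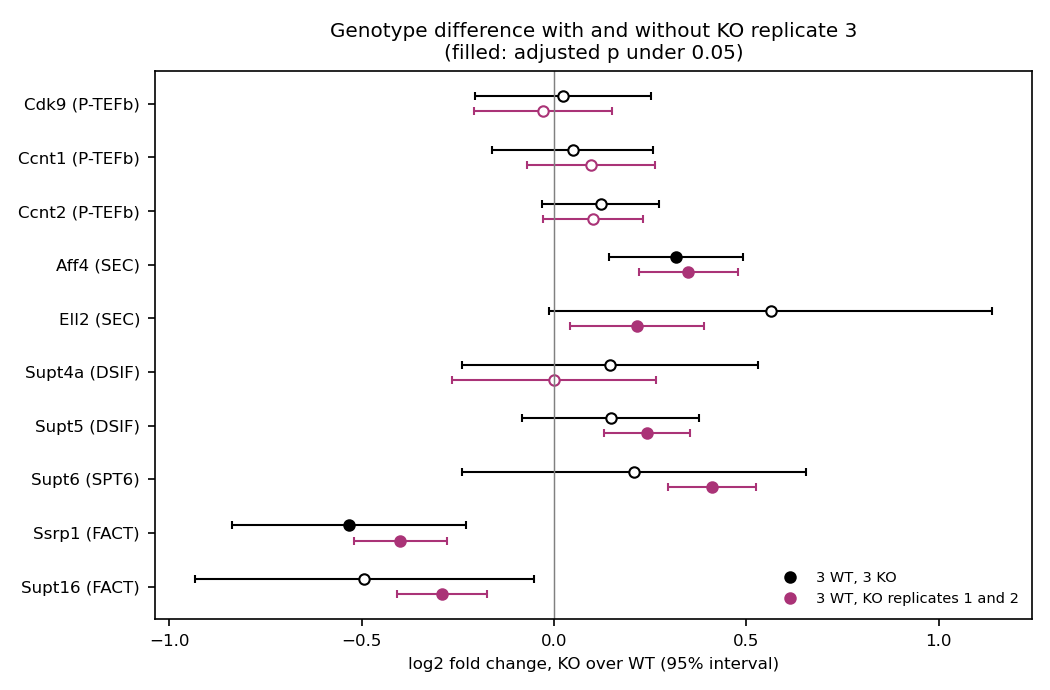
log2 fold change of knockout over WT with its 95% interval for each gene, from all 6 libraries (black) and without knockout replicate 3 (purple); filled points have an adjusted p under 0.05 in edgeR's test. With all libraries Ssrp1 and Aff4 are filled, and without that replicate Supt16, Ell2, Supt5 and Supt6 are filled too.

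To compare the genes with each other, CPM was divided by the deposited gene length in kilobases. In WT cells Ssrp1 was the highest at 102 ± 3.50 CPM per kilobase (mean ± SD, n = 3), and Supt5 followed at 51.7 ± 1.004. Supt16, Cdk9 and Supt4a came next at 45.1 ± 1.11, 44.3 ± 3.70 and 43.0 ± 6.93, and neighbours among these 3 overlapped. Below them lay Supt6 at 32.0 ± 0.771, Aff4 at 28.2 ± 1.53 and Ccnt1 at 10.01 ± 0.631, each apart from its neighbours. Ccnt2 at 9.02 ± 0.090 and Ell2 at 8.99 ± 0.447 overlapped. In knockout cells Ssrp1 was still first at 70.2 ± 11.8 CPM per kilobase but overlapped with Supt5 at 57.3 ± 6.66, and Supt16, at 32.1 ± 8.26, ranked 7 in place of 3. In the deposited FPKM values Supt4a stood higher, second in WT cells at 66.5 after Ssrp1 at 95.1. In knockout cells it was first at 70.3, ahead of Ssrp1 at 66.4, and Supt16 ranked 5 at 41.7.

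Ratios between partners were taken within each library, where the scaling of the library cancels. Ssrp1 over Supt16 was 2.25, 2.13 and 2.37 in WT and 2.0995, 2.07 and 2.51 in knockout cells, as a ratio of counts per kilobase. The values overlapped, and the log2 ratio differed by -0.018 between the genotypes (p = 0.8, two-sided exact permutation test). From the deposited FPKM values the same ratio was 1.81, 1.77 and 2.03 in WT and 1.74, 1.62 and 1.40 in knockout cells. There every knockout library lay below every WT library, by -0.24 in the log2 ratio, so whether the partners differed by genotype depended on the values used. Ccnt2 over Ccnt1 was 0.911, 0.849 and 0.949 in WT and 0.871, 0.940 and 1.04 in knockout cells, so both cyclins had similar levels in every library. Supt4a over Supt5 spread from 0.704 to 0.954 in WT and from 0.693 to 1.15 in knockout cells. Ell2 over Aff4 was 0.328, 0.313 and 0.316 in WT and 0.282, 0.300 and 0.564 in knockout cells, below WT in 2 libraries and above it in knockout replicate 3. The differences of the last 3 log2 ratios were 0.073, 0.0037 and 0.18, with exact permutation p-values of 0.5, 1 and 1. After Benjamini-Hochberg adjustment over the 4 ratios each p was 1, and 3 against 3 libraries cannot give a p below 0.1.

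**Figure D4:**
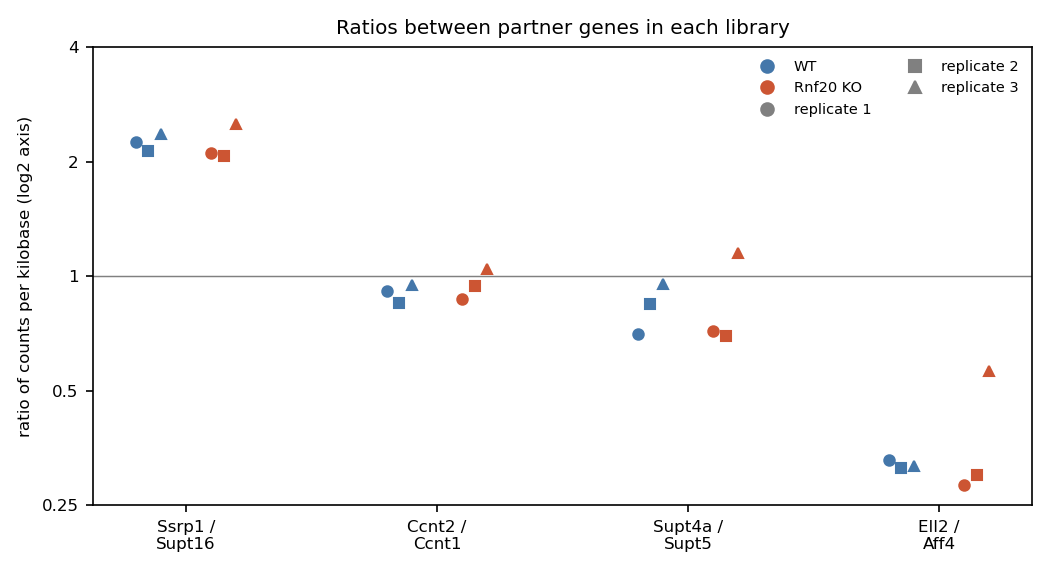
Ratio of counts per kilobase between partner genes in each library, on a log2 axis (blue, WT; red, Rnf20 knockout; symbols, replicates). WT and knockout values overlap for the first 3 ratios, and knockout replicate 3 lies highest in each of the 4.

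The other genes of the pathway were counted from 8 lists with 62 genes, of which 60 passed the filter on low counts. In edgeR's test at an adjusted p under 0.05, 14 were lower and 10 higher in knockout cells and 36 did not pass, where 16.6% of all genes were lower and 16.4% higher. Without knockout replicate 3 there were 20 lower and 17 higher, against 24.2% and 23.9% of all genes. Without WT replicate 1, 2 or 3 the lower genes were 5, 4 and 2, against 7.31%, 6.13% and 5.17% of all genes. The higher ones were 1 each time, against 7.01%, 5.75% and 5.11%. Leaving out knockout replicate 2 gave 9 and 4, against 11.6% and 12.4% of all genes.

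P-TEFb is kept inactive by the 7SK particle, in which HEXIM1 or HEXIM2 blocks the kinase while LARP7 and MEPCE hold the 7SK RNA. With all libraries all 4 of these genes fell and none of the list of 6 rose, where 16.6% of all genes were lower and 16.4% higher. Without knockout replicate 3 the list had 4 lower and 1 higher, against 24.2% and 23.9% of all genes. Mepce changed the least of the 4 (log2 fold change -0.22, edgeR adjusted p = 0.0424). Hexim1 went from 70.8 to 80.6 CPM in WT to 62.5, 56.6 and 49.7 CPM in knockout cells (log2 fold change -0.40, edgeR adjusted p = 0.0299). Larp7 had a log2 fold change of -0.43 (edgeR adjusted p = 0.0157), and Hexim2, at 3.28 to 4.23 CPM in WT, one of -1.18 (edgeR adjusted p = 0.0184). Hexim1 kept its call in 2 of the 6 fits with 1 library removed, Larp7 in 4 and Hexim2 in 3. The median of the list was -0.31, while Cdk9 and its cyclins lay between 0.024 and 0.12.

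Among partners of the SEC and of ELL, 3 of the 5 genes tested rose and none fell. Mllt3, which encodes the chromatin reader AF9, had 67.3 to 74.6 CPM in WT and 106, 100.05 and 103 CPM in the knockout. Its log2 fold change of 0.55 (edgeR adjusted p = 0.00443) was called in all 6 fits with a library left out. Ell, the gene of the first ELL factor, had a log2 fold change of 0.56 (edgeR adjusted p = 0.0322), called in 2 of those fits, and Aff1, a second scaffold, one of 0.43 (edgeR adjusted p = 0.0173), called in 3. With Aff4, both scaffold genes and Mllt3 were thus higher in knockout cells. The other 2 genes, Eaf1 and Mllt1, were at 0.25 and -0.0027 and did not pass.

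NELF holds the paused polymerase. All 4 NELF genes had negative log2 fold changes, from -0.50 to -0.14, and 1 passed, Nelfb (log2 fold change -0.32, edgeR adjusted p = 0.0286, called in 2 of the 6 fits with a library left out). The CTD serine 2 kinase genes Cdk12, Cdk13 and Ccnk did not pass, the largest difference being that of Cdk12 at 0.17 (edgeR adjusted p = 0.277), which was 0.28 without knockout replicate 3 (edgeR adjusted p = 0.00474). In that fit all 3 of them were called higher, and the correction for gene length also called Cdk12, at 0.23 (edgeR adjusted p = 0.0438). Of the 6 genes of the PAF complex, which recruits RNF20 to the polymerase, 1 rose, Cdc73 (log2 fold change 0.31, edgeR adjusted p = 0.0383), and it kept its call in 1 of the 6 fits.

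Of 10 other elongation factors 3 rose and 1 fell. Tcea3, a TFIIS that restarts stalled polymerase, was low, at 2.80 to 4.27 CPM in WT and 5.49, 7.22 and 12.6 CPM in knockout cells (log2 fold change 1.18, edgeR adjusted p = 0.0390), and was 0.78 without knockout replicate 3. Eloc, the elongin C gene, had a log2 fold change of 0.58 (edgeR adjusted p = 0.0190) and Htatsf1, which encodes TAT-SF1, one of -0.46 (edgeR adjusted p = 0.0286). The ubiquitous TFIIS gene Tcea1 was at 0.072 and overlapped. They were called in 2, 3 and 2 of the 6 fits with a library left out for Tcea3, Eloc and Htatsf1. Of 12 subunits of RNA polymerase II, 3 rose and 1 fell. Polr2l and Polr2k, small subunits shared by all 3 nuclear polymerases, had log2 fold changes of 0.78 and 0.61 (edgeR adjusted p = 0.0300 and 0.0265), and Polr2e, also a shared subunit, one of -0.32 (edgeR adjusted p = 0.0356). Their calls held in 3, 1 and 1 of the 6 fits. Polr2a, the largest subunit, was at -0.075 with overlapping libraries. It had 288 to 319 CPM in WT and 317, 332 and 203 CPM in knockout replicates 1 to 3, the last below all WT libraries.

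Of 14 other histone chaperone genes 7 fell and none rose with all libraries, with a median log2 fold change of -0.38. Without knockout replicate 3 there were 10 lower and 1 higher, against 24.2% and 23.9% of all genes. The largest falls were those of Chaf1b and Chaf1a, subunits of the replication-coupled assembly factor CAF-1, and of Nasp, which carries free histone H3 and H4. Chaf1b had 21.3 to 26.6 CPM in WT and 9.64, 7.55 and 5.19 CPM in knockout cells (log2 fold change -1.68, edgeR adjusted p = 0.00487), and all 6 fits with a library left out called it. Nasp and Chaf1a had log2 fold changes of -1.41 and -1.17 (edgeR adjusted p = 0.0172 and 0.0129), called in 3 and 4 of the 6 fits. As with FACT, knockout replicate 3 was the lowest library for each of these 3 genes, as it was for the proliferation genes, and the part of proliferation in them was not tested. Spty2d1, the SPT2 gene, whose product acts behind the elongating polymerase, was at 0.16 (edgeR adjusted p = 0.266), and Nap1l1 and Nap1l4 did not pass either.

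**Figure D5:**
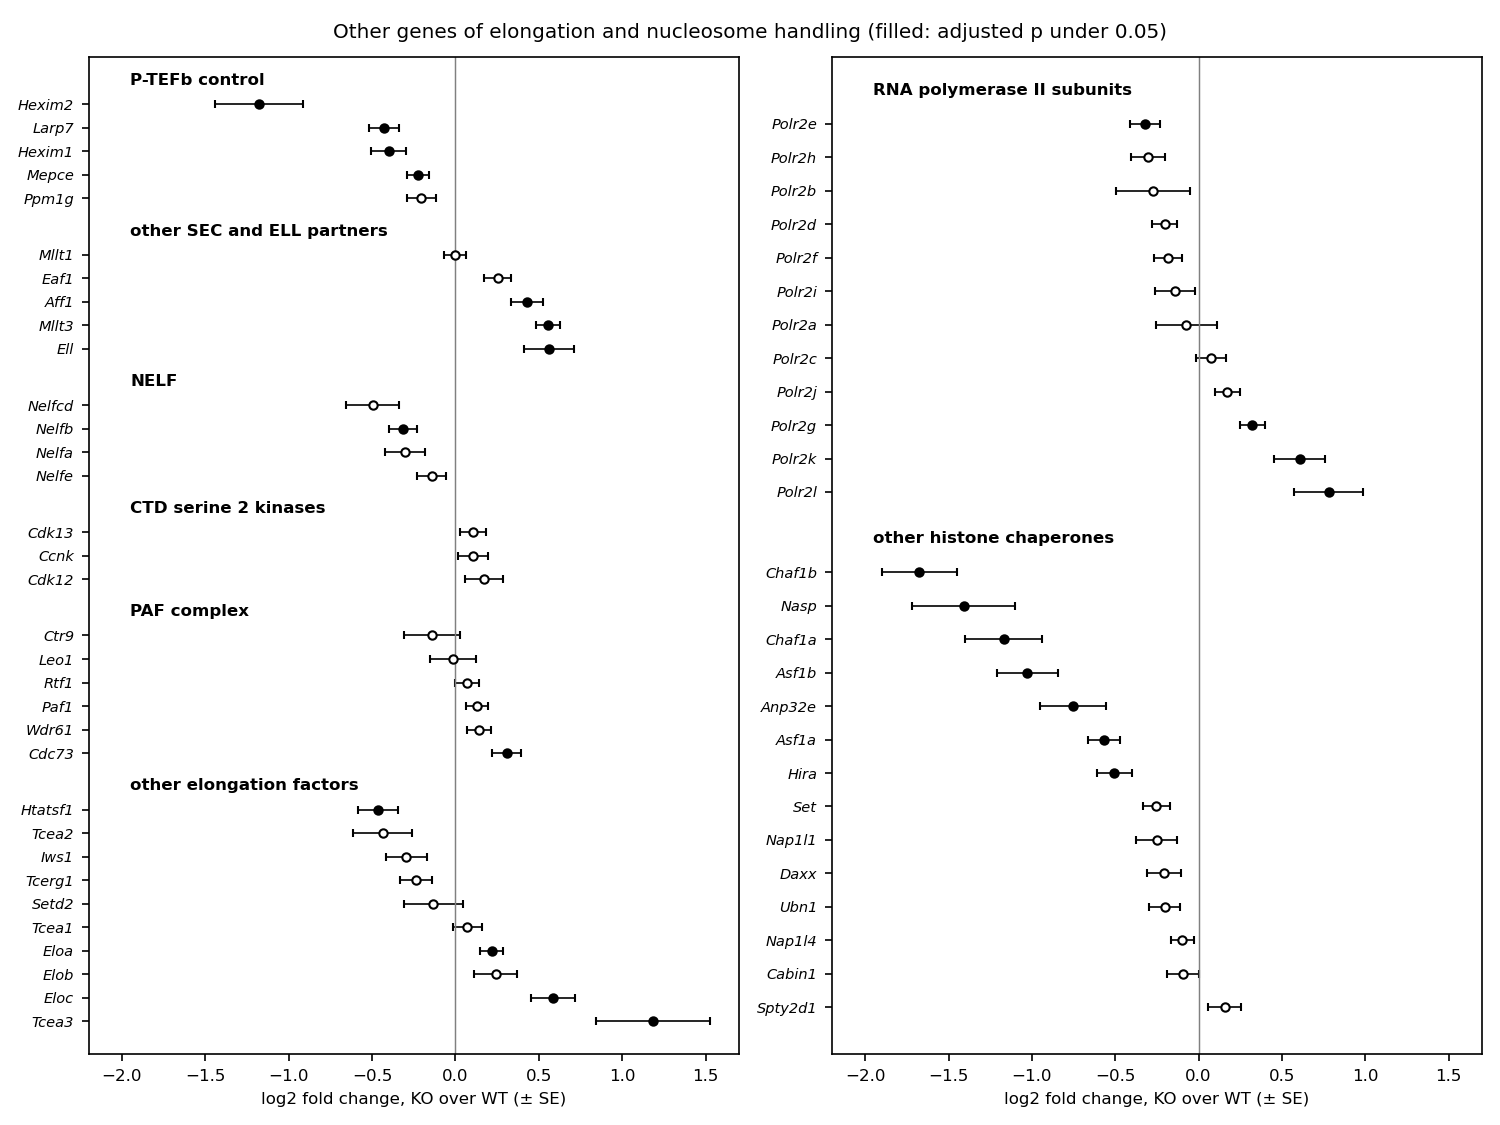
log2 fold change of knockout over WT (± standard error) for the tested genes of the 8 lists, with 1 gene that did not pass the test left out, filled where the adjusted p was under 0.05 in edgeR's test. The 7SK particle genes of the list of P-TEFb control and 7 of the other histone chaperones lie to the left as filled points, and Mllt3, Ell and Aff1 to the right.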

How the data were processed

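Poly(A)-selected, stranded libraries of 3 WT and 3 Rnf20 knockout samples were sequenced by the authors, aligned to GRCm38/mm10 with HISAT2 2.1.0 and deposited as raw counts per gene with gene lengths. The counting program and its strand setting are not given in the sources used here. FPKM values from Cufflinks 2.1.1 were deposited for 12633 genes. The deposited log2 fold changes and FDR of the authors' comparison of WT and knockout were not used.

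R 4.3.3 and edgeR 4.0.16 were used on the counts, with TMM, filterByExpr (13386 of 16982 genes left) and the quasi-likelihood test of genotype alone, Benjamini-Hochberg adjusted over all genes tested. A standard error is the size of the log2 fold change over the root of its F statistic. Library totals lay between 20545442 and 21746898, where 3 counts equal about 0.142 to 0.143 CPM, which covers counting error only. Genes were placed by Ensembl identifier in GENCODE M21 (all 10 matched) and promoters by symbol in RefSeq. Log2 CPM and ratios used a pseudocount of 2 counts. Alternatives were RLE factors, library totals, DESeq2 1.42.0, 2 other filters, a threshold of 0.01, the replicate number as a block, a loess correction for gene length (span 0.5) each library left out and FPKM in place of counts. The fit was also run on simulated counts, where the recovery of the median log2 fold change was the check applied. No library was made to stand apart in that simulation, unlike knockout replicate 3 in the data.

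The genes and lists were chosen with earlier results of these data known. The text names the 10 genes, Rnf20, the nearest 3 genes to each FACT gene and, of each list, up to 3 called genes with the largest change or, with none called, the gene with the largest. Mepce, Eaf1, Mllt1, Cdk13, Ccnk, Tcea1, Polr2a, Spty2d1, Nap1l1 and Nap1l4 were added for their role after their values were seen. The values of 1 gene of the lists are not reported here.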

Additional observations from a re-analysis of the deposited data

How the results depend on the processing

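Of the 10 genes, 1 was lower and 1 higher in knockout cells under RLE factors, library totals, both other filters, the correction for gene length and the replicate block. In these fits 11.1% to 20.1% of all genes were lower and 10.3% to 18.7% higher. DESeq2 gave 2 lower and 1 higher. With a threshold of 0.01, edgeR gave 0 lower and 0 higher, beside 2 and 1 by an unadjusted p under 0.05. With each library left out in turn there were 0 to 2 lower and 0 to 4 higher genes, against 5.17% to 24.2% and 5.11% to 23.9% of all genes. In each fit without a WT library both counts were 0 (by an unadjusted p under 0.05 from edgeR, 1 lower and 1 higher), and knockout replicate 3 was the library whose loss gave 2 and 4. The share of all genes by an unadjusted p was not counted. None of the 10 genes passed the thresholds of the study in any alternative. Over the 8 lists, the 14 lower and 10 higher genes became 3 and 1 when the threshold was 0.01. The shares of all genes were then 4.89% and 4.98%. With a library left out the lists had 2 to 20 lower and 1 to 17 higher genes.

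The log2 fold change of Cdk9 was -0.036 and that of Ccnt1 -0.012 with library totals. With a library left out they ranged from -0.028 to 0.091 for Cdk9, from -0.013 to 0.097 for Ccnt1 and from -0.00012 to 0.27 for Supt4a. The difference of the log2 ratio of Ssrp1 over Supt16 was -0.24 in the deposited FPKM values, and the cause was not tested. The log2 ratio of the genotype means in FPKM, an alternative chosen after seeing the data and given no test, kept its sign for all 10 genes. Library totals gave 2684 lower and 1750 higher genes in all, against 2218 and 2195 with TMM.

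Same-numbered WT and knockout libraries had correlations of their deviations from the genotype means of -0.066, 0.037 and 0.011. Knockout replicate 3 stood apart and so weighs on all the knockout deviations. These correlations therefore cannot settle whether the replicate numbers pair the samples. Ddx3y had 2005 and 1990 counts in WT replicates 1 and 3 and 0 counts in knockout replicates 1 and 3. Those same-numbered libraries were thus not 1 cell population split by genotype. Whether samples of the same number shared a batch is not given in the sources used here. With the replicate block the lists had 9 lower and 1 higher genes and all genes together 1490 and 1385.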
